A study of Homo sapiens with 4 samples.

Results

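The genes described here are the 6 chains of the interferon receptors (IFNAR1, IFNAR2, IFNGR1, IFNGR2, IFNLR1 and IL10RB), the 3 Janus kinases attached to them (JAK1, JAK2 and TYK2) and the kinase inhibitor SOCS1. They were chosen by name, with earlier results of these data known. They were the rows of the count table annotated with these symbols, and made up 10 of 63241 genes. The cells were FT190, an immortalised human line derived from fallopian tube secretory epithelium, whose cell type the labels give as ovarian epithelial. RNA-seq libraries were made from cells with an shRNA (short hairpin RNA) that depletes SMARCA4, an ATPase subunit of SWI/SNF chromatin remodellers (shSMARCA4 libraries 1 and 2, n = 2), and from cells with the PLKO control vector (control libraries 1 and 2, n = 2). All 4 came from cells labelled wild type and grown in RPMI medium with fetal bovine serum. The labels name a single hairpin and do not state whether replicates are separate cultures, so the p-values given here reflect only the scatter of these libraries, and that scatter may be technical.

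Interferons act through receptors built of unlike partner chains, each of which carries its own Janus kinase. Type I interferons bind IFNAR1 with IFNAR2, interferon-gamma (type II) binds IFNGR1 with IFNGR2, and the lambda interferons (type III) bind IFNLR1 with IL10RB. The kinases phosphorylate STAT proteins, which with IRF9 switch on the interferon-stimulated genes, and SOCS1, itself induced by the pathway, binds the kinases and shuts the signal off. Epithelial cells are known to use the type I, type II and type III receptors.

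Total counts were 27137414 to 33641343 per library. SMARCA4 itself stood at 34.0 and 36.3 CPM (counts per 1e+06 counts of the scaled library) in the shSMARCA4 libraries and at 171 and 162 CPM in the controls, a log2 fold change of -2.24 ± 0.052 (SE). Replicate libraries were not copies of each other: the chi-square of their counts per degree of freedom was 1.58 for the shSMARCA4 pair and 4.50 for the control pair. Of the 6 epithelial markers, the keratins KRT7, KRT8 and KRT18 were abundant. KRT7 stood at 305 ± 3.68 CPM in shSMARCA4 cells and 596 ± 49.1 CPM in control cells (SD, n = 2 each). CDH1 was low, at 3.70 and 4.16 CPM on average in shSMARCA4 and control cells, and EPCAM was near 0 (0.284 and 0.477 CPM). The keratin KRT19 had 2 and 0 counts in the shSMARCA4 libraries and 5 and 4 in the controls. Of the 6 tubal secretory markers, PAX8 stood at 63.4 ± 0.167 CPM in shSMARCA4 cells and 58.6 ± 1.70 CPM in control cells. WT1 had 18.2 ± 0.303 CPM in shSMARCA4 cells and 14.3 ± 0.747 CPM in control cells. SOX17 was low, at 1.41 and 1.44 CPM on average in shSMARCA4 and control cells. MUC16 (0.374 and 0.323 CPM), OVGP1 (0.230 and 0.200 CPM) and ESR1 (0.0345 and 0.0917 CPM) were near 0. The ciliated markers summed to at most 1.48 CPM per library and the endothelial markers to at most 1.12 CPM. The 8 immune markers summed to 24.7 and 25.9 CPM in the shSMARCA4 libraries and 24.0 and 26.7 CPM in the controls, nearly all from CD68, with NKG7 at 0 in all 4 libraries and CD3E at 0 in 3 of them. The 6 epithelial markers summed to 1180 and 1182 CPM in the shSMARCA4 libraries and 1780 and 1673 CPM in the controls. The 6 fibroblast and smooth muscle markers summed to 1678 and 1807 CPM in the shSMARCA4 libraries and 2269 and 2317 CPM in the controls. Most of each sum was COL1A1, with 1540 and 1663 CPM in the shSMARCA4 libraries and 1968 and 2004 CPM in the controls. Of these markers 5 of 5 tested fell, where 15.8% of all genes tested fell. Of the tested epithelial markers 3 of 5 fell (KRT7, KRT8 and KRT18), and of the tested immune markers 1 of 4. WT1 rose, as 1 of 4 tested tubal secretory markers, where 13.8% of all genes tested rose. The part of these marker differences in the results below was not tested.

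Promoter sequences show where the letters bound by interferon-activated factors occur near the members. RefSeq windows from 250 bases before to 50 bases after a start site (GRCh38.p14) were found for 9 of the 10 members, and for each the window nearest the start of the counted transcript was searched. Searched were the gamma-activated site (GAS, TTCNNNGAA, which reads the same on both strands) and the core of the interferon-stimulated response element (ISRE, a pair of GAAA half-sites with NN between them or, on the other strand, a pair of TTTC half-sites with NN between them). The 3 windows below belong to the member with the largest called rise, the only member that fell, and the inhibitor. Each is written 5′ to 3′ along its gene, with any motif match in capitals.
IFNGR2 (chr21:33403163-33403462, plus strand): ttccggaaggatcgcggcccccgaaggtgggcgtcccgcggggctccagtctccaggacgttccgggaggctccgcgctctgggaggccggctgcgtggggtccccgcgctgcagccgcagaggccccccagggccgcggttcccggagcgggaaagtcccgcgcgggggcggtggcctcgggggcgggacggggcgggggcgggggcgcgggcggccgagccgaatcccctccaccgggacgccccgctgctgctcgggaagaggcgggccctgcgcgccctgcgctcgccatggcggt
IFNLR1 (chr1:24187240-24187539, minus strand): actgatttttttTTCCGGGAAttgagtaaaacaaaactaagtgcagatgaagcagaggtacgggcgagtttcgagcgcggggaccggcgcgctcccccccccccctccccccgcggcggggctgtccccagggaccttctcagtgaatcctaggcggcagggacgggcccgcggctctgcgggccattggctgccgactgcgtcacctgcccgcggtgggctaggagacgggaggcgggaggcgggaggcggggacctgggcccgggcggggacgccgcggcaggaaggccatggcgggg
SOCS1 (chr16:11256155-11256454, minus strand): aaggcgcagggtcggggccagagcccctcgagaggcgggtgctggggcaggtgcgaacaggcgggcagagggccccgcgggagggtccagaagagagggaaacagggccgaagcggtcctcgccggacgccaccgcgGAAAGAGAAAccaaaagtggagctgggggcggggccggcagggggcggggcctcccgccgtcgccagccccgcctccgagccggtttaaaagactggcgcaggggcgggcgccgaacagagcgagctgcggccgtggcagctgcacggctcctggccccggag
The IFNGR2 window held neither motif. IFNLR1 held a GAS match that begins at position -238 from the start site, and SOCS1 held an ISRE match that begins at position -113. IL10RB held a GAS match, TTCCCGGAA, that begins 11 bases past the start site. The other 6 windows searched, those of IFNAR1, IFNGR1, IFNGR2, JAK1, JAK2 and TYK2, held neither set of letters. Among all 34796 distinct windows of the reference table, 7.67% held the GAS letters and 3.57% the ISRE letters. The member windows were rich in G and C, from 63.0% in TYK2 to 80.0% in IFNGR2, where the median of all windows was 58.7%.

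The receptor genes and the kinases did not move as a block in SMARCA4-depleted cells. All 3 kinases rose, and so did 1 chain of the type I receptor (IFNAR2) and 1 chain of the type II receptor (IFNGR2), while the type III chain IFNLR1 fell. The call of TYK2 was lost in 4 and that of IFNLR1 in 3 of 13 other settings. In a quasi-likelihood test with edgeR, Benjamini-Hochberg adjusted over 18781 genes, 5 of the 10 members rose, where 13.8% of all genes tested rose, and 1 fell, where 15.8% of all genes fell. In either direction 29.7% of all genes passed. The members were chosen with earlier results of these data known, so their shares are no unbiased comparison with all genes. Of these calls 46.6% were rises, and 59.5% with scaling by library totals alone. The median log2 fold change of the 10 members was 0.27, that of the 6 receptor chains -0.06, and that of all genes 0.00. Expression did not overlap between the groups in 9 members, a state that 65.9% of all genes shared. Fewer cells expressing a gene and less RNA of it per cell cannot be told apart in bulk libraries. All adjusted p-values below come from this edgeR fit unless another tool is named, rose and fell are used only under an adjusted p of 0.05, and log2 fold changes (shSMARCA4 over control) carry their standard errors. SOCS1 reached the filter on low counts only in the shSMARCA4 libraries, so its entry into the test was not independent of its difference.

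**Figure D1:**
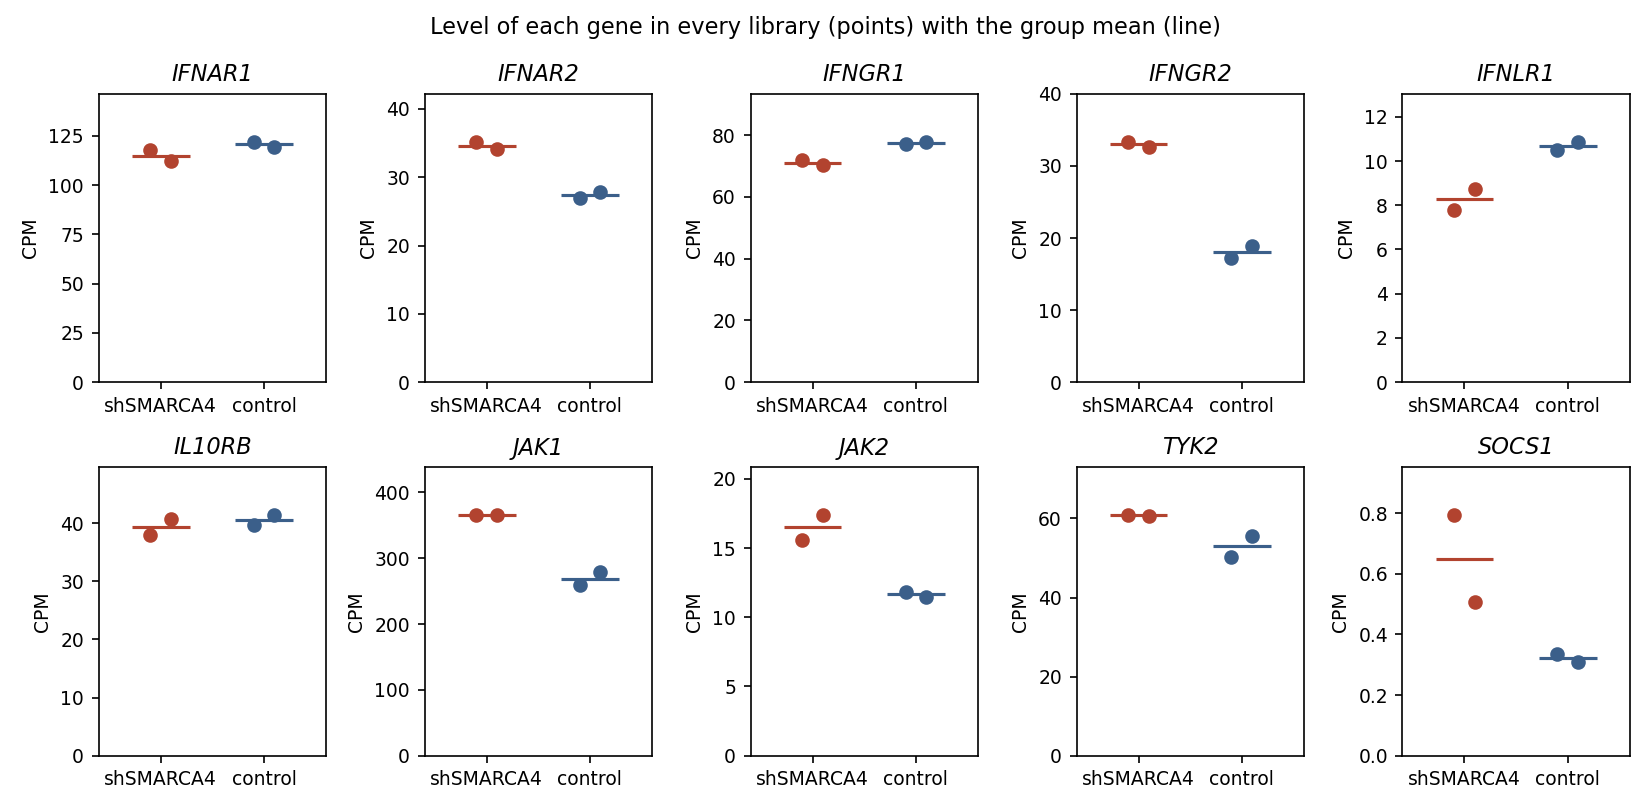
Level of each of the 10 genes in CPM (vertical axes, each from 0) in every library, with shSMARCA4 libraries on the left and control libraries on the right of each panel; points are libraries and lines are group means. IFNGR2 has the largest called difference (33.4 and 32.7 CPM in shSMARCA4 libraries against 17.2 and 18.9 CPM in controls), and the groups overlap in IL10RB alone.

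Levels of different genes were compared per length, as CPM per kilobase of the counted transcript (RPKM). JAK1, the kinase shared by the receptors of all 3 interferon types, was the most abundant member, at 72.4 ± 0.0664 RPKM in shSMARCA4 cells and 53.3 ± 2.91 RPKM in control cells (SD, n = 2 each). IFNGR1 followed at 32.0 ± 0.548 RPKM in shSMARCA4 cells and 34.9 ± 0.239 RPKM in control cells. In shSMARCA4 cells IL10RB (20.4 ± 1.02 RPKM), IFNGR2 (19.6 ± 0.294 RPKM) and IFNAR1 (19.0 ± 0.684 RPKM) came next, and each overlapped its neighbour in this order. In control cells the order was IL10RB (21.03 ± 0.627 RPKM), IFNAR1 (19.9 ± 0.329 RPKM) and IFNGR2 (10.7 ± 0.691 RPKM), with no overlap between neighbours. Thus IFNGR2 stood beside IFNAR1 and IL10RB in shSMARCA4 cells and well below them in control cells. This order depends on the lengths used. For IFNGR2 the counted length was 1686 bases, where GENCODE release 29 gives its transcript 2221 exon bases. IL10RB also overlaps a read-through gene, described below. TYK2 had 10.7 ± 0.0124 RPKM in shSMARCA4 cells and 9.36 ± 0.677 RPKM in control cells, and IFNAR2 8.12 ± 0.191 RPKM in shSMARCA4 cells and 6.43 ± 0.146 RPKM in control cells. JAK2, at 2.37 ± 0.181 RPKM, lay above IFNLR1, at 1.82 ± 0.144 RPKM, in shSMARCA4 cells. In control cells JAK2 (1.67 ± 0.0336 RPKM) lay below IFNLR1 (2.35 ± 0.0559 RPKM), so the order of this pair was turned round. SOCS1 was the least abundant, at 0.365 ± 0.114 RPKM in shSMARCA4 cells and 0.181 ± 0.0101 RPKM in control cells.

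**Figure D2:**
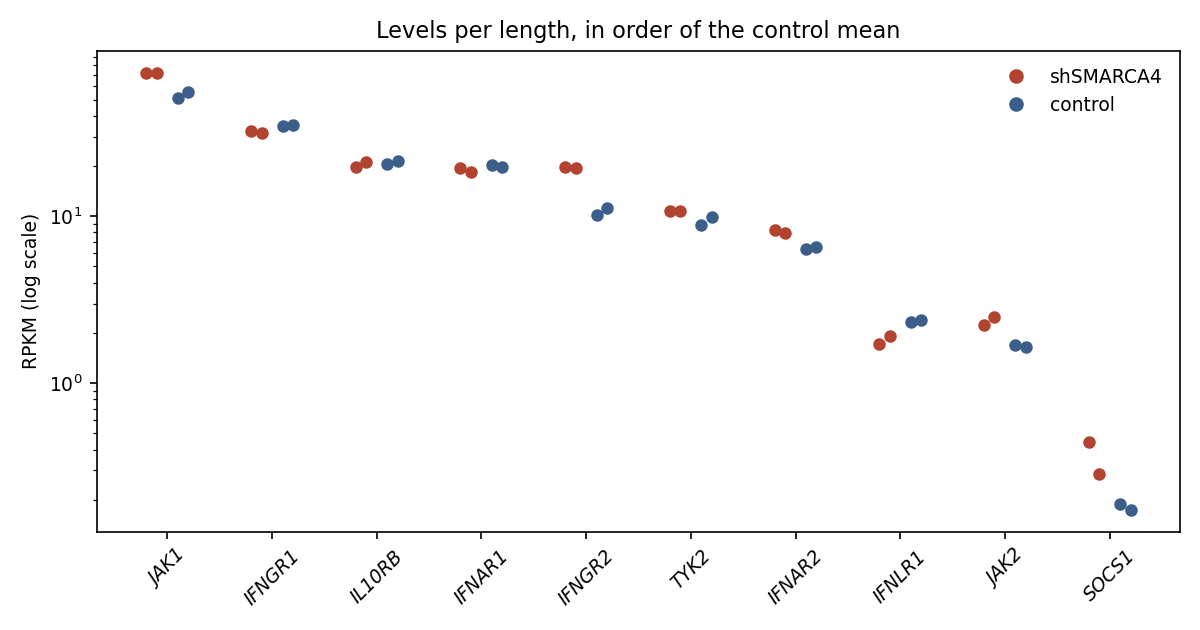
RPKM (vertical axis, log scale) of each gene in every library, ordered by the control mean along the horizontal axis; points to the left of each tick are shSMARCA4 libraries and points to the right are control libraries. JAK1 lies highest in both groups. On the transcript lengths counted, IFNGR2 reaches the level of IFNAR1 and IL10RB in shSMARCA4 cells, at 19.6 against 19.0 and 20.4 RPKM.

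The receptor of interferon-gamma held the largest called change among the members, in its chain IFNGR2. IFNGR2 (ENSG00000159128.16, chromosome 21, 33403413 to 33437516 of hg38, plus strand), the signalling chain that carries JAK2, had 33.4 and 32.7 CPM in the shSMARCA4 libraries and 17.2 and 18.9 CPM in the controls. Both shSMARCA4 libraries lay far above both controls. The log2 fold change was 0.87 ± 0.068, a 1.83-fold higher level (adjusted p = 4.23e-05), and 94.6% of tested genes had a log2 fold change of this size or smaller. IFNGR1 (ENSG00000027697.16, chromosome 6, 137197497 to 137219449 on the minus strand), the ligand-binding chain that carries JAK1, had 72.0 and 70.2 CPM in the shSMARCA4 libraries and 77.2 and 77.9 CPM in the controls. Both shSMARCA4 libraries were below both controls by a small margin, and the log2 fold change of -0.12 ± 0.044 did not pass (adjusted p = 0.0598, 95% interval -0.22 to -0.03). It stood at -0.13 when control library 1 was left out. The ratio of IFNGR2 to IFNGR1, taken from their RPKM within each library, was 0.611 and 0.613 in the shSMARCA4 libraries and 0.294 and 0.319 in the controls.

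Of the type I receptor, IFNAR2 passed the test. IFNAR2 (ENSG00000159110.22, chromosome 21, 33229971 to 33265675 on the plus strand), the high-affinity chain that carries JAK1, had 35.2 and 34.1 CPM in the shSMARCA4 libraries and 27.0 and 27.9 CPM in the controls. The groups did not overlap, and the log2 fold change was 0.34 ± 0.057, a 1.26-fold higher level (adjusted p = 0.00238). IFNAR1 (ENSG00000142166.15, chromosome 21, 33324970 to 33359864 on the plus strand), the partner that carries TYK2, had 118 and 112 CPM in the shSMARCA4 libraries and 122 and 119 CPM in the controls. These values lay close together, and the log2 fold change of -0.07 ± 0.044 (95% interval -0.17 to 0.03) did not pass (adjusted p = 0.280). Within each library the ratio of IFNAR2 to IFNAR1 in RPKM was 0.423 and 0.431 in the shSMARCA4 libraries and 0.314 and 0.331 in the controls.

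In the type III receptor the ligand-specific chain fell. IFNLR1 (ENSG00000185436.12, chromosome 1, 24154168 to 24187289 on the minus strand), whose expression is known to confine lambda interferon responses largely to epithelia, had 7.80 and 8.73 CPM in the shSMARCA4 libraries and 10.5 and 10.9 CPM in the controls. Both shSMARCA4 libraries were lower, with a log2 fold change of -0.37 ± 0.100, a 1.30-fold lower level (adjusted p = 0.0210). This call was lost with DESeq2 (adjusted p = 0.0929), with no filter on low counts (0.0626) and without shSMARCA4 library 1 (-0.28, adjusted p = 0.209). IL10RB (ENSG00000243646.11, chromosome 21, 33266367 to 33297221 on the plus strand), the chain shared with the receptors of IL-10 and IL-22, had 38.002 and 40.8 CPM in the shSMARCA4 libraries and 39.7 and 41.4 CPM in the controls. The groups overlapped, and the log2 fold change was -0.04 ± 0.057 (95% interval -0.17 to 0.09, adjusted p = 0.628). Its sign turned with library totals alone and without shSMARCA4 library 1. The ratio of IFNLR1 to IL10RB in RPKM was 0.0869 and 0.0906 in the shSMARCA4 libraries and 0.112 and 0.111 in the controls.

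**Figure D3:**
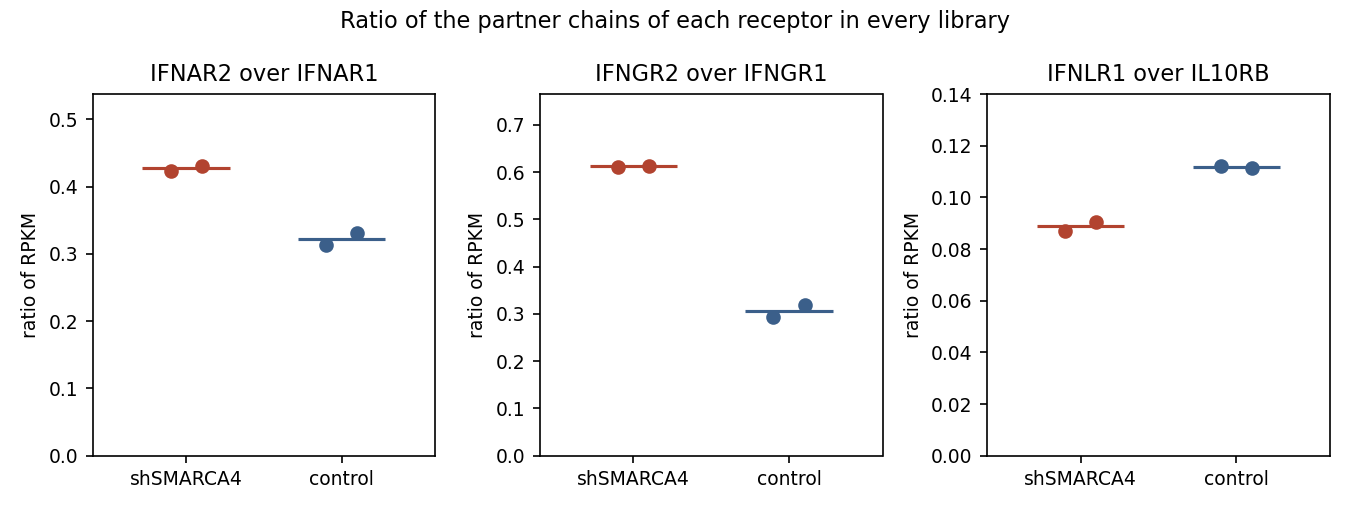
Ratio of RPKM between the partner chains of the type I, type II and type III receptors (vertical axes, each from 0) in every library, with shSMARCA4 libraries on the left of each panel; points are libraries and lines are group means. The shSMARCA4 points lie above the controls for IFNAR2 over IFNAR1 and IFNGR2 over IFNGR1 (0.611 and 0.613 against 0.294 and 0.319) and below them for IFNLR1 over IL10RB (0.0869 and 0.0906 against 0.112 and 0.111).

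With 2 libraries in each group, an exact permutation test of such a ratio cannot go below p = 0.33, so none was run.

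The genes of 4 of these receptor chains lie side by side within 208 kb of chromosome 21, in the order IFNAR2, IL10RB, IFNAR1 and IFNGR2 along the plus strand. Of the 4, the outer genes IFNAR2 and IFNGR2 rose and the inner genes IL10RB and IFNAR1 did not pass the test. The table also counts a read-through gene, IFNAR2-IL10RB, which spans the first pair on the same strand, and reads of IFNAR2, IL10RB and the read-through cannot be fully told apart. It had 61.5 and 63.7 CPM in the shSMARCA4 libraries and 56.0 and 59.4 CPM in the controls (0.12 ± 0.051, adjusted p = 0.112). The read-through passed with library totals alone, and with 1 library left out it ranged from 0.080 to 0.16. The antisense RNA IL10RB-DT shares 1803 exon bases with IFNAR2 in GENCODE release 29, and the counting did not separate strands. It had 8.25 and 8.01 CPM in the shSMARCA4 libraries and 7.10 and 6.66 CPM in the controls (0.24 ± 0.10, adjusted p = 0.119). With all counts of IL10RB-DT taken away, IFNAR2 had 27.0 and 26.0 CPM in the shSMARCA4 libraries and 19.9 and 21.2 CPM in the controls. That is 1.29-fold higher in shSMARCA4 cells. The part of reads shared with IL10RB-DT or the read-through gene in the IFNAR2 difference was not tested. Downstream of IFNGR2, the gene TMEM50B runs in the opposite direction and overlaps its end. TMEM50B rose as well (0.32 ± 0.061, adjusted p = 0.00414), with 39.5 and 36.2 CPM in the shSMARCA4 libraries and 29.9 and 30.6 CPM in the controls. The 2 genes share 89 exon bases in GENCODE release 29, whose IFNGR2 model differs in length from the counted one, so the reads they share could not be measured. On the far side, DNAJC28, next after TMEM50B, stood at -0.03 ± 0.25 and did not pass (adjusted p = 0.944), and OLIG1, the nearest protein-coding neighbour before IFNAR2, had 0 counts in all 4 libraries.

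All 3 kinases of the pathway rose. JAK1 (ENSG00000162434.14, chromosome 1, 64833229 to 64966549 on the minus strand) had 365 CPM in both shSMARCA4 libraries and 259 and 279 CPM in the controls. The shSMARCA4 libraries lay above both controls, with a log2 fold change of 0.44 ± 0.045, a 1.36-fold higher level (adjusted p = 1.77e-04). Its span overlaps the neighbouring gene RAVER2 by 4 bases. RAVER2 fell (-0.19 ± 0.057, adjusted p = 0.0342), a call lost with DESeq2, library totals or no filter and without either shSMARCA4 library. JAK2 (ENSG00000096968.14, chromosome 9, 4985272 to 5129948 on the plus strand), the kinase of the IFNGR2 chain, had 15.6 and 17.4 CPM in the shSMARCA4 libraries and 11.8 and 11.5 CPM in the controls. The groups did not overlap (0.50 ± 0.088, 1.41-fold higher, adjusted p = 0.00290). TYK2 (ENSG00000105397.15, chromosome 19, 10350545 to 10380608 on the minus strand), the kinase of IFNAR1 and IL10RB, had 60.9 and 60.8 CPM in the shSMARCA4 libraries and 50.3 and 55.7 CPM in the controls. The control libraries differed from each other about as much as the nearer of them differed from the shSMARCA4 libraries. The log2 fold change was 0.20 ± 0.057, 1.15-fold higher (adjusted p = 0.0282), a call lost with DESeq2 (adjusted p = 0.0736), with no filter on low counts (0.115), and without shSMARCA4 library 1 (0.0727) or 2 (0.0776). Without control library 1 it stood at 0.13. The fourth kinase of the family, JAK3, which serves the common gamma chain of lymphocyte receptors, had 8 and 11 counts in the shSMARCA4 libraries and 12 and 7 in the controls.

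The inhibitor SOCS1 was near the limit of detection. SOCS1 (ENSG00000185338.7, chromosome 16, 11254417 to 11256200 on the minus strand) had 23 and 14 counts in the shSMARCA4 libraries and 11 and 10 in the controls, which are 0.794 and 0.507 CPM against 0.335 and 0.310 CPM. Both shSMARCA4 libraries were higher, but they differed from each other by more than the lower of them differed from the controls. The log2 fold change of 1.01 ± 0.38 did not pass (adjusted p = 0.0763), with a 95% interval from 0.15 to 1.87. It stood at 0.65 without shSMARCA4 library 1 (adjusted p = 0.534).

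**Figure D4:**
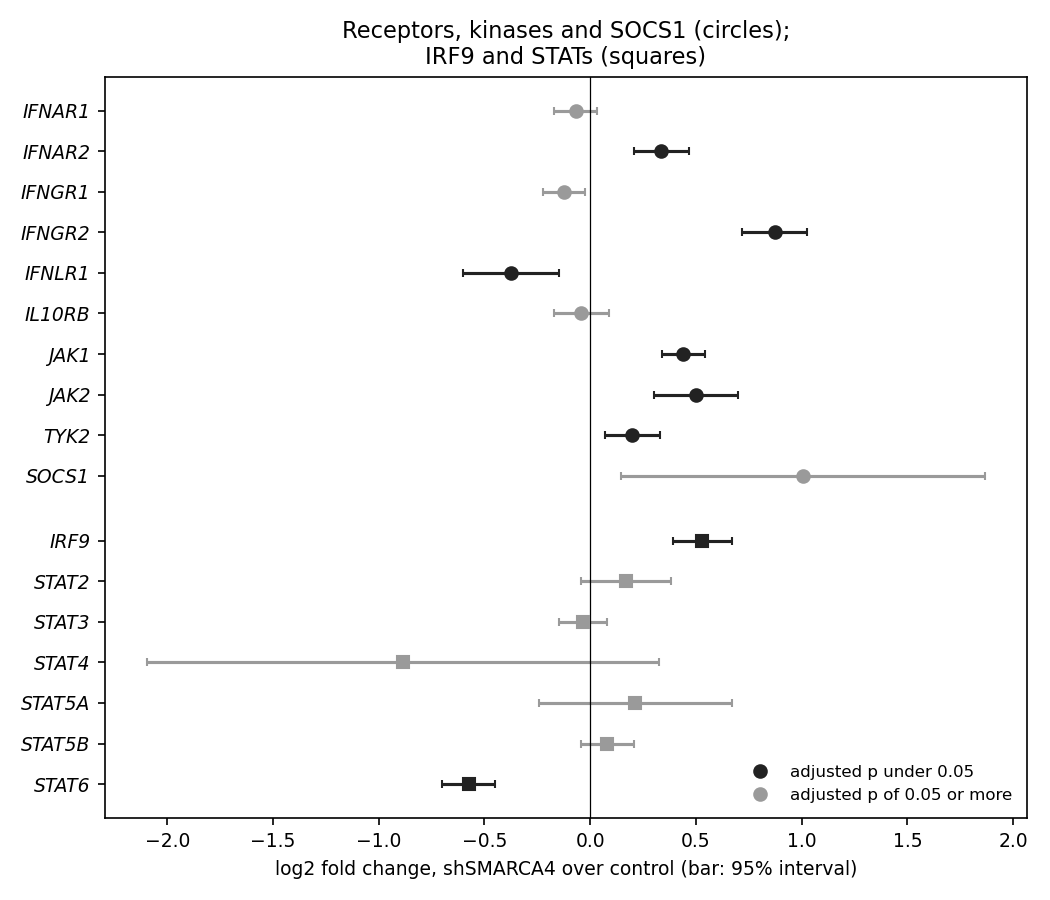
Log2 fold change of shSMARCA4 over control cells (horizontal axis) with its 95% interval from edgeR's fit, for the 10 members (circles) and for IRF9 and 6 STATs (squares); black marks passed the test at an adjusted p under 0.05 and grey marks did not. IFNGR2 (0.87), JAK2 (0.50), JAK1 (0.44), IFNAR2 (0.34) and TYK2 (0.20) lie to the right of 0 and IFNLR1 (-0.37) to the left, and the interval of SOCS1 is the widest of the members.

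The signal passes from the kinases to the STATs and IRF9, and the genes described here did not all move together. IRF9, a DNA-binding partner of STAT2, rose, with 111 ± 8.73 CPM in shSMARCA4 cells and 77.1 ± 4.37 CPM in control cells (0.53 ± 0.062, adjusted p = 3.58e-04). STAT6, the transducer of IL-4 and IL-13, fell to 43.0 ± 2.02 CPM in shSMARCA4 cells, against 64.0 ± 2.68 CPM in control cells (-0.58 ± 0.055, adjusted p = 1.21e-04). STAT2 stood at 125 ± 13.1 CPM in shSMARCA4 cells and 111 ± 15.9 CPM in control cells and did not pass (0.17 ± 0.094, adjusted p = 0.212). With 1 library left out it ranged from 0.035 to 0.32, so its size depended on single libraries. STAT3 (-0.03 ± 0.051), STAT5A (0.21 ± 0.20), STAT5B (0.08 ± 0.056) and STAT4 (-0.89 ± 0.54) did not pass. STAT4, a transducer best known from lymphocytes, had 5 and 9 counts in the shSMARCA4 libraries and 21 and 9 in the controls.

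Transcripts of the ligands themselves were at the floor of these libraries. Of 21 interferon genes, 17 had 0 counts in all 4 libraries, and none had enough counts to be tested. IFNB1, the type I interferon made by most cell types, had 4 and 2 counts in the shSMARCA4 libraries and 0 in both controls. IFNL1, a lambda interferon, had 2 and 3 counts in the shSMARCA4 libraries and 0 in both controls. IFNE had 1 and 1 counts in the shSMARCA4 libraries and 2 and 3 in the controls, and IFNA5 had 1 count in shSMARCA4 library 2. A count of 0 in the controls allows up to 3 counts, or 0.0915 and 0.0930 CPM in control libraries 1 and 2, counting error only, so no fold is given.

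Other brakes on the pathway were called in both directions. Of 20 negative regulators of JAK-STAT signalling besides SOCS1, 5 rose and 3 fell, with a median log2 fold change of -0.07, where 13.8% of all genes tested rose and 15.8% fell. The share that fell was near that of all genes. USP18, which binds IFNAR2 and displaces JAK1, had 60.5 ± 9.92 CPM in shSMARCA4 cells and 25.0 ± 0.877 CPM in control cells (1.27 ± 0.100, adjusted p = 4.43e-05). USP18 is itself an interferon-stimulated gene. The adaptor SH2B3 (0.48 ± 0.050), a brake on JAK2, the phosphatase PTPN2 (0.38 ± 0.046), which acts on JAK1, and SOCS6 (0.35 ± 0.048) rose too, as did PIAS4 (0.26 ± 0.069), a SUMO ligase. PIAS4 was not called by DESeq2, without the filter, or without either shSMARCA4 library. SOCS4 (-0.18 ± 0.041), the STAT5 target CISH (-1.23 ± 0.31) and the phosphatase PTPN1 (-0.16 ± 0.044) fell. Of the 3 falls, none was called without shSMARCA4 library 2 and 1 was called without shSMARCA4 library 1. CISH rested on 14 and 10 counts in the shSMARCA4 libraries and 31 and 34 in the controls. SOCS3, the inhibitor best known from IL-6 signalling, had 4.34 ± 0.573 CPM in shSMARCA4 cells and 4.90 ± 0.253 CPM in control cells (adjusted p = 0.384).

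Receptors of other cytokines that signal through the same kinases were compared next. Of the 4 tested genes among 5 other class II cytokine receptors, the structural relatives of the interferon receptors, and JAK3, only IL20RB passed, as lower (2.23 ± 0.124 CPM in shSMARCA4 cells and 3.18 ± 0.102 CPM in control cells, -0.51 ± 0.16, adjusted p = 0.0378). The IL20RB call was lost with DESeq2, library totals or no filter, and without control library 2 or either shSMARCA4 library. Of 25 other receptors that use Janus kinases, 16 could be tested, of which 6 rose and 5 fell. Of all genes tested, 13.8% rose and 15.8% fell. The shared chain of the IL-6 family, IL6ST, fell to 316 ± 6.54 CPM in shSMARCA4 cells, against 439 ± 8.49 CPM in control cells (-0.47 ± 0.039, adjusted p = 5.78e-05). Its partner LIFR (-0.60 ± 0.059), IL7R (-0.48 ± 0.063) and the IL-13 receptor chain IL13RA1 (-0.22 ± 0.050) fell as well, as did the low IL21R (-1.08 ± 0.29). IL27RA (0.66 ± 0.071), IL31RA (0.78 ± 0.16), IL11RA (1.17 ± 0.25) and OSMR (0.15 ± 0.044) rose, of which OSMR lost its call with DESeq2, with no filter and without either shSMARCA4 library. The IL13RA1 call was lost with no filter and without shSMARCA4 library 1, and the IL21R call with DESeq2 and without control library 2 or either shSMARCA4 library.

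Targets of the pathway were set beside its receptors. Of 36 interferon target genes, a list chosen with the rise of such genes already known, 34 rose, and the median of their log2 fold changes was 0.76. The smallest adjusted p-values were those of IFIT2 (1.37 ± 0.064), IFIT5 (0.77 ± 0.046), IFIH1 (1.12 ± 0.071) and IFIT1 (1.14 ± 0.074). UBE2L6 (0.26 ± 0.099) and IFI27 (0.07 ± 0.068) did not pass, though UBE2L6 passed with library totals alone. With 1 library left out, UBE2L6 ranged from 0.097 to 0.42 and IFI27 from -0.032 to 0.17. Summed over the list, these genes held 7362 and 8940 CPM in the shSMARCA4 libraries and 4747 and 5091 CPM in the controls, with shSMARCA4 library 2 the highest. Of 26 genes chosen as responders to interferon-gamma, 22 could be tested, with a median of 0.31. Of these 9 rose, 2 fell and 11 did not pass. Over all genes tested the shares were 13.8% for rises and 15.8% for falls. Among the 9 rises the smallest adjusted p-values were those of GBP4 (1.66 ± 0.16), TAP1 (0.58 ± 0.065), TAP2 (0.46 ± 0.055) and IRF1 (0.68 ± 0.084). TAP1 and TAP2 are peptide transporter subunits and IRF1 is a transcription factor. WARS1 (-0.48 ± 0.061), a tryptophan tRNA ligase, and GBP2 (-0.34 ± 0.097) fell, the second not called with no filter on low counts and at -0.19 without control library 2. Summed over this list, shSMARCA4 libraries held 2968 and 3282 CPM and the controls 2972 and 3132 CPM, so the sums overlapped. Most of each sum came from 1 gene that did not pass, B2M (-0.02 ± 0.053). B2M had 1784 and 1943 CPM in the shSMARCA4 libraries and 1816 and 1965 CPM in the controls, so the sums say little about the other genes.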

How the data were processed

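RNA was sequenced from 2 shSMARCA4 and 2 control libraries, grouped and numbered by the sample titles. Per the labels' protocols, a SMARTer mRNA kit was used on total RNA. The authors deposited raw counts per gene, which per the file headers come from HOMER (analyzeRepeats; hg38, GENCODE 45 exons, both strands, 1 transcript per gene, no normalization). Antisense and overlapping genes can therefore share reads. STAR 2.6.1c and DESeq2 1.19.38 are named in the submitters' processing notes.

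Genes were kept by filterByExpr (count minimum 10), which left 18781 of 63241. TMM scaling and the two-sided quasi-likelihood test of edgeR 4.0.16 (R 4.3.3; glmQLFit, glmQLFTest) were applied without a replicate block, and p-values were Benjamini-Hochberg adjusted over the 18781 genes, with a threshold of 0.05. CPM are counts per 1e+06 of the scaled total, and RPKM are CPM per kilobase of the length column; both were computed here. Standard errors were derived from the F statistic (the absolute log2 fold change over the root of F). The test was also run on counts simulated from its own fitted means and spread, which cannot show whether that model suits these libraries. Alternatives were 12 fixed settings (3 scalings, 2 filters, DESeq2 1.42.0, protein-coding genes only, a replicate block, each library left out), and 1 chosen after seeing the data (without the read-through row). Exon overlaps come from GENCODE 29 and may differ from the models counted.

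The members and gene lists were chosen with earlier results of these data known. Named were all members, SMARCA4, genes overlapping or beside the chromosome 21 receptors, STATs, IRF9 and interferon genes with a count (1 gene is not reported here), and per list up to 6 called genes or the 4 with the smallest adjusted p in each direction. Further genes (JAK3, SOCS3, IL21R, PIAS4, UBE2L6, IFI27, B2M and the cell type markers) were chosen after their values were seen.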

Additional observations from a re-analysis of the deposited data

How the results depend on the processing

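Of 128 values of the 10 members under other settings, 117 kept their direction and their side of the threshold, 7 lost a call, 2 gained one and 2 turned sign. IFNAR1, IFNAR2, IFNGR2, JAK1, JAK2 and SOCS1 kept both under every setting run. SOCS1 gave no value with a 1 CPM filter and no adjusted p with DESeq2. The count of members that rose was 4 or 5 throughout. The count that fell, 1, was 0 with no filter and with DESeq2, 2 with the replicate block, and 0 to 2 with 1 library left out. With library totals alone IL10RB stood at 0.0072, STAT3 at 0.016 and DNAJC28 at 0.018. With 1 library left out, IL10RB ranged from -0.094 to 0.017, STAT3 from -0.10 to 0.039 (each above 0 without shSMARCA4 library 1) and DNAJC28 from -0.29 to 0.18 (above 0 without shSMARCA4 library 2). IFI27 ranged from -0.032 to 0.17 (below 0 without control library 1 or shSMARCA4 library 2).

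All genes called as higher numbered 1403 with no filter, 1625 with DESeq2 and 1724 to 3618 with 1 library left out, against 2596. Those called as lower numbered 1784, 1930 and 2077 to 3828, against 2976. Genes that rose made up 46.6% of calls and 59.5% with library totals, which moved the median of all genes to 0.04. Negative regulators that fell numbered 1 with no filter, 0 with DESeq2 (CISH had no adjusted p there) and 0 to 5 with 1 library left out. Class II receptors that fell numbered 0 with library totals, no filter or DESeq2 and 0 to 1 with 1 library left out. Other receptors that rose numbered 3 with no filter or DESeq2 and 3 to 6 with 1 library left out, and those that fell 3 to 5. Gamma responders that fell numbered 1 with no filter. Where 1 library was left out, the lone library was assumed to vary like the other group. Calls without a control library therefore rest on the scatter of the shSMARCA4 pair alone. That scatter was smaller than that of the control pair (chi-square per degree of freedom 1.58 against 4.50).

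Replicate numbers could not be shown to pair libraries, since only 2 pairs exist (correlation of their deviations over genes 0.148). With the replicate block IFNGR1 passed (-0.12, adjusted p = 0.0364 by edgeR) and so did STAT2 (0.17, adjusted p = 0.00591 by edgeR) and UBE2L6 (0.26, adjusted p = 0.00126 by edgeR). The cause of these shifts was not tested. Counts were low for SOCS1, CISH, STAT4, JAK3 and the interferon genes, which limits their precision.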
